A study of Mus musculus with 9 samples.

Results

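The 8 genes described here, Gp9, Gp5, Vwf, Gp6, Itga2b, Pf4, Ppbp and Tubb1, are genes of the megakaryocyte and of the platelet it releases. They were taken by symbol from the 22173 genes counted in every library. All 8 were found, and all 8 were among the 12094 genes left for testing by a filter on low counts. The libraries were made from neutrophils, the short-lived granulocytes of the innate immune system, that had been isolated from the bone marrow of wild type mice and embedded in gelatin methacryloyl (GelMA) hydrogel. The study asked what the stiffness of the gel does to these cells. A low gel of 1.5 kPa elastic modulus served as its control beside a middle gel of 2.6 kPa and a high gel of 5.7 kPa, with 3 libraries per gel, numbered 1 to 3. All 9 libraries shared the gel material, the RPMI medium with 10% fetal bovine serum, the 2 days of culture and the capture of poly(A) RNA. The labels give no strain, age or sex, and they do not say whether the libraries of one gel came from separate animals or cultures. The p-values accordingly reflect only how far these libraries vary, and that variation may be technical.

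Megakaryocytes are large polyploid cells of the bone marrow that bud platelets into the blood. Platelets carry little newly made RNA, and most of what they hold was transcribed in the megakaryocyte. At a wound the glycoprotein Ib-IX-V complex catches platelets on von Willebrand factor, the collagen receptor glycoprotein VI signals, the integrin alpha IIb beta 3 binds fibrinogen, and alpha granules release chemokines. None of the 8 genes is in use as a marker of neutrophils. In bulk libraries, fewer cells of a type and less RNA per cell cannot be told apart.

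The libraries held 13172879 to 19486546 counts each. The libraries numbered 1 stood apart from those numbered 2 and 3 in every gel. Deviations from the gel means correlated at −0.78 to −0.65 between replicate 1 and replicate 2 or 3 of different gels, at 0.55 to 0.70 between replicates 2 and 3, and at 0.60 to 0.86 between libraries of one number. The labels do not say what a number stands for. Over the 9 libraries S100a8, a marker of the labelled cell type, averaged 3342 and the macrophage gene Gpnmb 3123 CPM (counts scaled to one common library size). S100a8 was lower than Gpnmb in every library of replicate 1, at 977 to 1382 CPM, and higher in every library of replicates 2 and 3. The 12 neutrophil markers summed to 2914 to 3371 CPM in replicate 1 and 12050 to 21820 in replicates 2 and 3, and 10 macrophage markers summed to 7004 to 8111 CPM in replicate 1 and 4487 to 7073 CPM in replicates 2 and 3. Of that sum Gpnmb made up 4562 to 5709 CPM in replicate 1 and 1165 to 3420 CPM in replicates 2 and 3, and the other 9 macrophage markers summed to 2402 to 2796 CPM in replicate 1 and 3322 to 3718 CPM in replicates 2 and 3. The gel differences are therefore given with the replicate number as a block in the model, and also with replicate 1 left out.

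Per length of exon, Pf4 was the most abundant of the 8, with a mean of 96.5 FPKM (fragments per kilobase of exon, scaled to depth) over the 9 libraries and a range of 22.5 to 147. It ranked 607th among all genes. Ppbp averaged 24.5 FPKM (2.87 to 67.4), Vwf 22.03 (8.84 to 58.0), Tubb1 8.09 (3.33 to 15.6) and Itga2b 6.47 (1.42 to 13.7). The glycoprotein genes were lower, with Gp5 at 1.93 (0.68 to 4.36), Gp6 at 1.31 (0.12 to 2.62) and Gp9 at 0.639 FPKM (0.19 to 1.45). The ranges of neighbours in this order overlapped throughout. Apart from Vwf, the 8 genes took 0.00473 to 0.00579% of all counts in replicate 1 and 0.0125 to 0.0265% in replicates 2 and 3.

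The promoters of 7 of the 8 genes, all but Vwf, were read from the RefSeq sequence of build GRCm38.p6, over 300 bases of which 250 lie before the start of the gene and 50 after it. Shown here are Itga2b and Gp5, which fell together in the high gel, and Pf4 and Gp6, whose gel difference had opposite signs in replicate 1 and in replicates 2 and 3. Capitals mark the letters searched, AGATAA or TGATAA as read by GATA factors, and AGGAAG or CGGAAG as read by ETS factors, on either strand. The stretches are chr11:102469834-102470133 on the minus strand for Itga2b, chr16:30310732-30311031 minus for Gp5, chr5:90772185-90772484 plus for Pf4 and chr7:4397695-4397994 minus for Gp6.
Itga2b: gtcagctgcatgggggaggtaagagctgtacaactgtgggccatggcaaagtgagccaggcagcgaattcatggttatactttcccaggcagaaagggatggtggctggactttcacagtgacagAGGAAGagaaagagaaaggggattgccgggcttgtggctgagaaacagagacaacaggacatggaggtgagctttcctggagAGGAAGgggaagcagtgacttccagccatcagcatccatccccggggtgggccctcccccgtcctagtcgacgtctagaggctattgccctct
Gp5: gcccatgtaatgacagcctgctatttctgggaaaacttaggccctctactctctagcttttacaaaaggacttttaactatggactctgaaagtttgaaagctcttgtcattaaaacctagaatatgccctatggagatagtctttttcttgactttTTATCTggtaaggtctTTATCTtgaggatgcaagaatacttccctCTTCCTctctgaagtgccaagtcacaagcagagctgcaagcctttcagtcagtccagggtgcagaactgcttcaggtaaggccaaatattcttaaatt
Pf4: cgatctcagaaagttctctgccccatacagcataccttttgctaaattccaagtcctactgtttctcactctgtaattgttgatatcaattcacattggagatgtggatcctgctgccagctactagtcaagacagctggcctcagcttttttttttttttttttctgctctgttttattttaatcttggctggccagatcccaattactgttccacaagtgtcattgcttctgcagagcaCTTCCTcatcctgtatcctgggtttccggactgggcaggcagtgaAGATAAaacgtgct
Gp6: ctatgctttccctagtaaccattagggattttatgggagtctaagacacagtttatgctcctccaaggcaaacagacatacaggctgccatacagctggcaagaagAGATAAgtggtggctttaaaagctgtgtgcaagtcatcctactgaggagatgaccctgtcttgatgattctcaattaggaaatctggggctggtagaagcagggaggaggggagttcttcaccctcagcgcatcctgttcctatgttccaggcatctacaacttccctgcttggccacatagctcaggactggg

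The Gp5 promoter held the GATA letters on the opposite strand, starting 93 and 77 bases before the start, and the ETS letters 48 bases before it. Itga2b held the ETS letters at 125 and 43 bases before the start and no GATA letters in this window. Pf4 held ETS letters 9 bases before the start and GATA letters 37 bases after it, and Gp6 held GATA letters 144 bases before it. GATA letters were present in 3 of 7 member promoters, in 8 of 45 promoters of a wider set of platelet and megakaryocyte genes, and in 18.6% of all 32851 promoters in the table. ETS letters were present in 5 of 7, in 24 of 45 and in 46.5%. These matches describe letters and not binding. Pf4 and Ppbp lie side by side on chromosome 5 between the chemokine genes Cxcl5 and Cxcl3, and none of the 8 genes overlaps another gene in that annotation.

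In the high gel, 5 of the 8 genes fell below the low gel once the replicate number was a block: Tubb1, Gp5, Gp9, Itga2b and Vwf. Their fold differences ran from 1.46 for Vwf to 2.60 for Tubb1. Ppbp, Pf4 and Gp6 did not pass the test. The test was edgeR's quasi-likelihood test with p-values adjusted over all 12094 genes, and a call is an adjusted p under 0.05. With that block 15.5% of all tested genes were called, 8.73% lower and 6.72% higher. The planned main fit had the gel alone in the model, with the block as an alternative. In that main fit none of the 8 was called, against 11 genes or 0.091% of all tested (0.0413% lower). At an unadjusted p under 0.05 there were then 2 members, Tubb1 and Gp5, and DESeq2 called 1, Tubb1. The median log2 difference of the 8 genes was −1.01 with the block and −1.13 without it, against −0.0026 and 0.0042 over all tested genes.

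**Figure D1:**
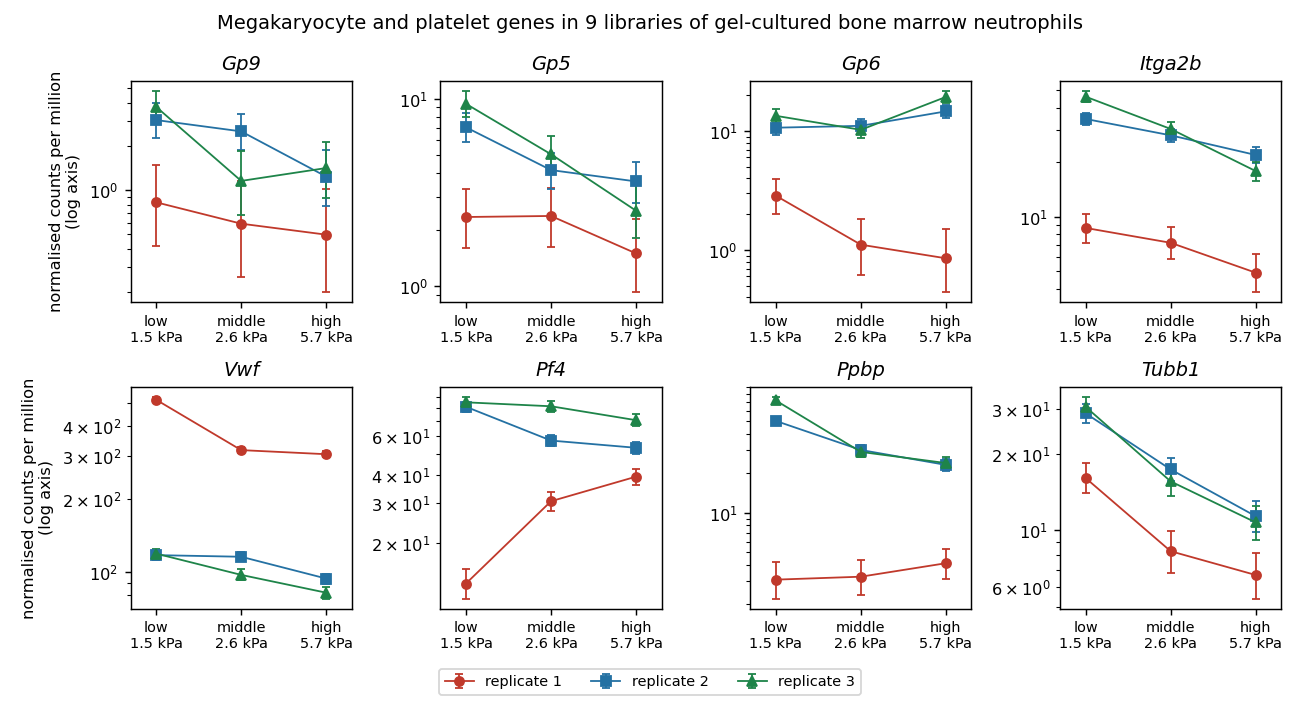
Normalised counts in CPM (log axis, each panel with its own range) of the 8 genes against gel stiffness, with the libraries of one replicate number joined by a line and bars for the exact 95% Poisson interval of each count. Tubb1, Itga2b and Vwf step down from low over middle to high in all 3 replicate numbers, Pf4 climbs in replicate 1 alone, and within each gel replicate 1 lies lowest for every gene but Vwf, where it lies highest.

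Glycoprotein IX (Gp9) and glycoprotein V (Gp5) are chains of the receptor for von Willebrand factor. Gp9 had 0.829, 3.04 and 3.74 CPM in low gel replicates 1, 2 and 3, 0.592, 2.54 and 1.16 in the middle gel, and 0.498, 1.24 and 1.42 in the high gel. These values rest on 7 to 62 counts, and 7 counts carry an exact Poisson 95% interval of 0.200 to 1.03 CPM, which covers counting error only. The high and low gels overlapped, as replicate 1 of the low gel lay under high gel replicates 2 and 3. The blocked log2 difference of high minus low was −1.23 ± 0.37 (SE, n = 3 per gel, adjusted p = 0.0442), and it was called in only 3 of the 9 fits that left out 1 library (adjusted p 0.0258 to 0.3). The calls were lost without low replicate 2 or 3, middle replicate 1 or 2, or high replicate 2 or 3.

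Gp5 had 2.34, 7.04 and 9.40 CPM in the low gel, 2.37, 4.16 and 5.06 in the middle gel, and 1.49, 3.62 and 2.53 in the high gel. Within each replicate number the high gel was lower, and only replicate 1 of the low gel reached into the high gel's range. The blocked difference was −1.22 ± 0.26 (adjusted p = 0.0105), which was lost without replicate 3 of the low gel (0.093) or of the high gel (0.0796), and without all of replicate 2 (0.109) or replicate 3 (0.21).

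Vwf, the ligand of that receptor, is made by megakaryocytes and by endothelial cells. It had 514, 117 and 119 CPM in the low gel, 318.5, 115 and 97.1 in the middle gel, and 306, 93.8 and 82.0 in the high gel. Replicate 1 was the highest of each gel, and within each number the values stepped down with stiffness. The blocked high minus low difference was −0.54 ± 0.11 (adjusted p = 0.00858), and it missed the threshold without high replicate 2 (0.0541) and without all of replicate 3 (0.101).

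Gp6, the collagen receptor chain that signals through the Fc receptor gamma chain, had 2.87, 10.7 and 13.4 CPM in the low gel, 1.11, 11.1 and 10.2 in the middle gel, and 0.853, 14.7 and 19.4 in the high gel. The high gel was lower than the low gel in replicate 1 and higher in replicates 2 and 3. Over the 3 numbers the blocked difference was 0.15 ± 0.31 (adjusted p = 0.793). Itga2b, the alpha chain of the fibrinogen receptor and an early marker of the megakaryocyte lineage, had 8.67, 34.7 and 46.1 CPM in the low gel, 7.18, 28.2 and 30.6 in the middle gel, and 4.91, 21.9 and 17.9 in the high gel. It was lower in the high gel within every number, with a blocked difference of −0.96 ± 0.14 (adjusted p = 0.00147) that was called in all 9 fits leaving out 1 library (adjusted p 0.000276 to 0.0159).

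Pf4 and Ppbp encode chemokines of the alpha granule, platelet factor 4 and the precursor of platelet basic protein. Pf4 had 13.1, 81.0 and 84.8 CPM in the low gel, 30.6, 57.2 and 81.5 in the middle gel, and 39.5, 53.1 and 70.6 in the high gel. Replicate 1 of the low gel was the lowest of the 9, and the order of the gels in replicate 1 was opposite to that in the other two numbers. The blocked difference was 0.10 ± 0.43 (adjusted p = 0.906). Ppbp had 3.09, 50.02 and 71.6 CPM in the low gel, 3.26, 30.1 and 29.0 in the middle gel, and 4.12, 23.1 and 23.9 in the high gel. It was lower in the high gel in replicates 2 and 3 and stayed between 3.09 and 4.12 CPM in replicate 1. Its blocked difference of −1.05 ± 0.29 missed the threshold (adjusted p = 0.0548), and it passed when replicate 1 of the low gel (5.9e-05) or of the high gel (0.00278) was left out.

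Tubb1, the beta tubulin of the platelet's marginal band, had 16.1, 28.8 and 30.6 CPM in the low gel, 8.29, 17.4 and 15.6 in the middle gel, and 6.68, 11.4 and 10.8 in the high gel. It was the only one of the 8 whose high gel libraries all lay below all low gel libraries, as 6.76% of all tested genes did. The mean was 9.60 ± 2.55 CPM in the high gel and 25.2 ± 7.92 CPM in the low gel (SD, n = 3 each). The blocked log2 difference was −1.38 ± 0.12 (adjusted p = 9.21e-05), and in the 9 fits leaving out 1 library it stayed between −1.44 and −1.31 (adjusted p 1.71e-05 to 0.00275). Without the block the same difference was −1.39 ± 0.37 (adjusted p = 0.305).

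Within the numbers, high minus low was negative in all 3 for Tubb1, Gp5, Itga2b, Vwf and Gp9, as for 24.8% of all tested genes. Pf4, Ppbp and Gp6 had the opposite sign in replicate 1 to that in both others, as 27.6% of genes did. Tubb1, Itga2b and Vwf were lower at each step from low over middle to high in every number, a pattern of 5.61% of tested genes. In middle against low gels, Tubb1 was the only member called with the block, at −0.88 ± 0.12 (adjusted p = 0.0056). There 1.84% of tested genes were called and 1.03% were lower, and the call was lost without low replicate 3, middle replicate 1 or middle replicate 3 (adjusted p 0.00158 to 0.0592 over the 9 fits), and without all of replicate 2 (0.111) or replicate 3 (0.112). Without the block no gene was called by edgeR in this comparison (0% of those tested). Among the members, Tubb1 had an unadjusted p under 0.05, and DESeq2 called none of them. No member was called in high against middle gels, with the block (0.0165% of tested genes) or without it (0%). Without it none had an unadjusted p under 0.05 and DESeq2 called none. The median log2 difference of the 8 genes with the block was −0.52 in middle against low and −0.32 in high against middle gels, against 0.0062 and −0.0078 over all tested genes. In neither comparison did the libraries of a member separate completely, where 4.2% of all genes lay wholly lower in middle than in low gels and 2.54% in high than in middle gels.

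**Figure D2:**
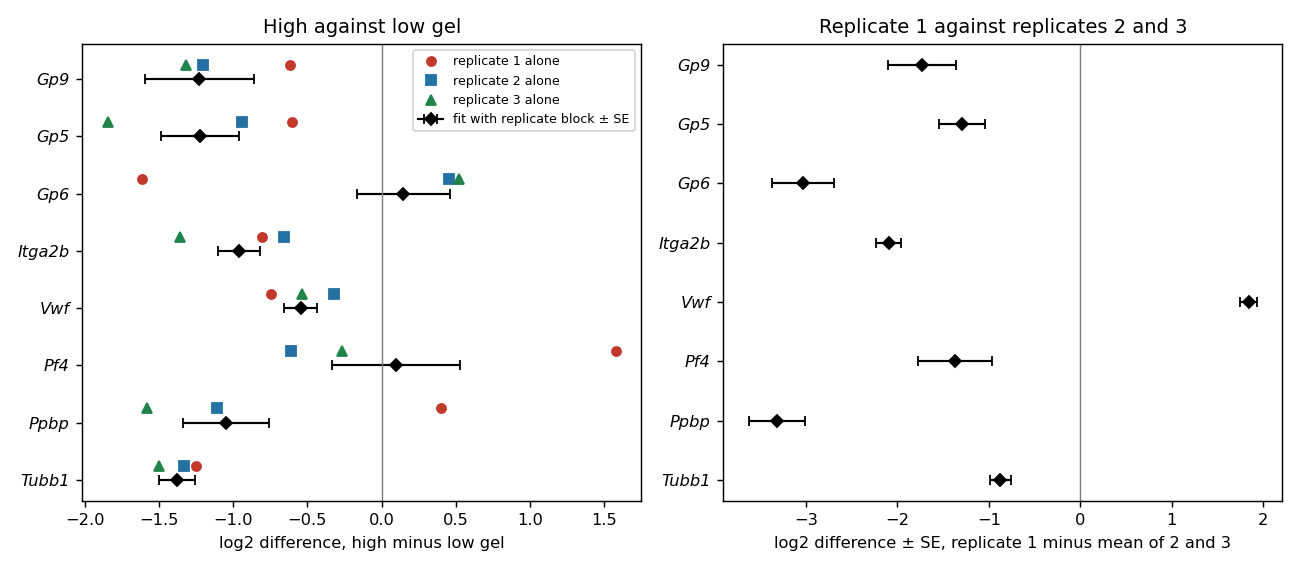
Left, the log2 difference of high minus low gel for each gene within replicates 1, 2 and 3 (points) and in the fit with the replicate number as a block (diamonds, ± SE). Right, the log2 difference of replicate 1 minus the mean of replicates 2 and 3 ± SE, where Vwf at 1.84 is the one gene above 0 and Ppbp at −3.32 the lowest.

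The contrast of replicate 1 with replicates 2 and 3 was taken because earlier results on these data had set replicate 1 apart. It sets 1 replicate number against 2 others. Its SEs and p-values rest on the spread among libraries left after gel and number, and not on the spread between numbers. All 8 were called, as were 65.4% of all tested genes: Vwf was higher (32.9% of genes were) and 7 were lower (32.5%). Vwf averaged 380 ± 117 CPM in replicate 1 (SD, n = 3) and 104 ± 15.3 CPM in replicates 2 and 3 (n = 6), a log2 difference of 1.84 ± 0.09 (SE, adjusted p = 5.16e-08). Ppbp averaged 3.49 ± 0.555 against 38.0 ± 19.2 CPM, a difference of −3.32 ± 0.31 (adjusted p = 6.37e-05). Gp6 averaged 1.61 ± 1.10 against 13.2 ± 3.46 CPM, a difference of −3.03 ± 0.34 (adjusted p = 5.34e-05).

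Itga2b averaged 6.92 ± 1.896 CPM in replicate 1 and 29.9 ± 9.96 CPM in replicates 2 and 3, with a log2 difference of −2.10 ± 0.14 (adjusted p = 2.55e-07). The remaining lower genes were Gp9 at −1.73 ± 0.37, Pf4 at −1.37 ± 0.40, Gp5 at −1.29 ± 0.25 and Tubb1 at −0.87 ± 0.11. The Pf4 call (adjusted p = 0.0316) was lost without middle replicate 1 (0.0836), middle replicate 3 (0.066), high replicate 3 (0.0575) or all of replicate 3 (0.166), and with no filter on low counts (0.0637). The Tubb1 call (adjusted p = 3.44e-05) was lost in a model with no term for the gel (0.125). The libraries did not overlap for 7 of the 8. All replicate 1 values lay above the rest for Vwf, as for 27.7% of tested genes, and below them for 6 genes, as for 26.5%, while Tubb1 overlapped. The median over the 8 genes was −1.55, against 0.0054 over all tested genes.

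Vwf thus moved opposite to the 7 other genes between the numbers, and markers of several cell types moved with them. The 8 megakaryocyte transcription factors, regulators such as Gata1 and Nfe2, summed to 190 to 230 CPM in replicate 1 and to 353 to 439 in replicates 2 and 3. Most of that sum came from Runx1, Fli1 and Nfe2, with means of 126.5, 97.97 and 78.56 CPM over the 9 libraries, while Gata1 averaged 2.61 CPM. The 10 endothelial markers summed to 14.4 to 26.3 CPM in replicate 1 and 7.69 to 20.9 CPM in the others, below the level of Vwf alone in every library. Of these markers 6 were under 1 CPM in all 9 libraries. Kdr, the receptor for vascular endothelial growth factor, reached 18.9 CPM and Esam, an adhesion molecule of endothelial cells and platelets, 8.18 CPM, and each of the other 8 stayed at or below 1.52 CPM. Esam was higher in replicate 1 (1.29 ± 0.19, adjusted p = 0.000122), Cdh5, the vascular cadherin, was lower (−1.74 ± 0.49, adjusted p = 0.00814) and Kdr did not pass the test (0.28 ± 0.19, adjusted p = 0.222). Cdh5 was singled out after its values were seen. The part of any of these cell types in the Vwf values was not tested.

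**Figure D3:**
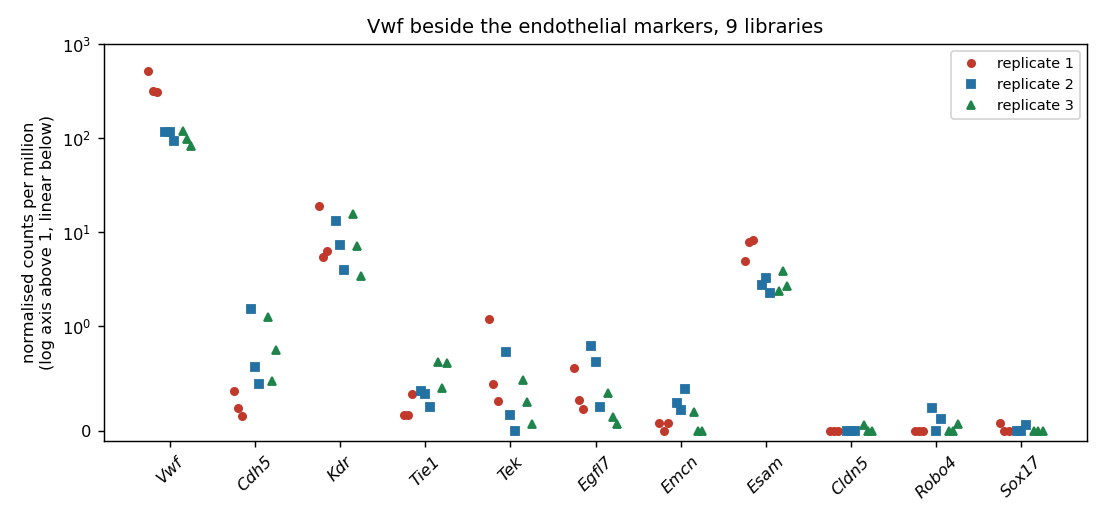
Vwf and the 10 endothelial markers in the 9 libraries, in normalised counts (CPM) on an axis that is logarithmic above 1 and linear below it, with low, middle and high gel from left to right within each replicate number. Vwf lies between 82.0 and 514 CPM, while 8 of the 10 markers stay at or below 1.52.

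The difference between high and low gels was itself called different between replicate 1 and replicates 2 and 3 for 3 of the 8 genes. The gel by replicate 1 term behind this was added after the opposite signs had been seen, and its model has 3 residual degrees of freedom. Such a difference was called for 8.36% of all tested genes. Replicate 1 has 1 library per gel there, so no test within replicate 1 is given, and its spread is assumed to be that of the other libraries. For Pf4 high minus low was 1.59 in replicate 1 and −0.43 in replicates 2 and 3 (adjusted p = 0.0938), differing by 2.01 ± 0.34 (adjusted p = 0.00676). For Ppbp it was 0.42 in replicate 1 and −1.37 in the others (adjusted p = 4.28e-05), differing by 1.78 ± 0.42 (adjusted p = 0.0232). Gp6 went the other way, at −1.74 in replicate 1, between libraries of 12 and 38 counts, and 0.49 in the others (adjusted p = 0.0575), differing by −2.23 ± 0.53 (adjusted p = 0.0232). For middle against low gels none of the 8 differed in this way (2.6% of genes did), Pf4 coming nearest at 1.49 ± 0.34 (adjusted p = 0.0574). Pf4 is also transcribed by some mouse macrophages. Between the numbers, 6 of the 10 macrophage markers were lower in replicate 1 and 2 were higher. The other 9 beside Gpnmb summed to 2402 to 2796 CPM in replicate 1 and 3322 to 3718 CPM in the others. Between the gels, the 10 markers summed to 8111 CPM in the low and 7405 CPM in the high gel of replicate 1, with Gpnmb at 5709 and 4609. In replicates 2 and 3 they summed to 7073 and 7035 CPM in low gels and 5016 and 4487 CPM in high gels. Gpnmb there had 3354 and 3420 CPM in low gels and 1411 and 1165 CPM in high gels. Without Gpnmb, the sum in replicate 1 was 2402 CPM in the low gel and 2796 CPM in the high gel. In replicates 2 and 3 that sum was highest, at 3718 CPM, in low gel replicate 2 and lowest, at 3322 CPM, in high gel replicate 3. The part of macrophage genes in the Pf4 result was not tested.

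In replicates 2 and 3 alone, 6 of the 8 genes were lower in the high gel than in the low gel: Tubb1 (−1.43 ± 0.12), Gp5 (−1.41 ± 0.24), Ppbp (−1.37 ± 0.15), Gp9 (−1.34 ± 0.37), Itga2b (−1.02 ± 0.14) and Vwf (−0.43 ± 0.10). There, with 2 libraries per gel, 26.3% of 12214 tested genes were called and 14% were lower. A fit with the replicate block in these 6 libraries was added after the data were seen. It cannot be shown that libraries sharing number 2 or number 3 are paired. In that fit all 8 were called, beside 26.1% of all genes (14.1% lower, 11.9% higher). Pf4 was then lower (−0.44 ± 0.10, adjusted p = 0.00502) and Gp6 higher (0.49 ± 0.16, adjusted p = 0.0335). Other cells' markers moved with them in these 6 libraries, with 8 of 9 tested erythroid (median −0.99), 9 of 12 neutrophil (−1.57) and 5 of 6 eosinophil markers (−1.23) lower in high than in low gels and none higher without the block. Macrophage markers were 7 lower and 3 higher of 10. Their part in the result was not tested. Tubb1, Gp5 and Ppbp were lower in middle than in low gels (6.42% of genes called, 3.3% lower). In high against middle gels Tubb1 and Itga2b were lower and Gp6 was higher (6.88% of genes called, 3.26% lower and 3.62% higher).

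Around the 8 genes, 48 further genes of platelets and megakaryocytes in 5 lists were read in the same fits, 47 of them tested. With the block, 19 were lower and 5 higher in the high gel than in the low gel, with a median log2 difference of −0.65, beside 8.73% of all tested genes lower and 6.72% higher. Among partners of the receptor complexes 2 of 6 were lower, the beta 3 integrin chain Itgb3 (−1.29 ± 0.12, adjusted p = 9.96e-05), which also pairs with another alpha chain outside platelets, and the collagen-binding chain Itga2 (−1.95 ± 0.26). Fcer1g, the Fc receptor gamma chain that Gp6 signals through, was higher (0.55 ± 0.09). Itgb3 was the 1 gene of the 48 called without the block (−1.28 ± 0.15, adjusted p = 0.0365).

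Of 10 other granule genes 4 were lower, among them coagulation factor F5 (−0.80 ± 0.12) and multimerin Mmrn1 (−1.27 ± 0.20). Another 3 were higher, among them Srgn, the core protein of granule proteoglycans (0.73 ± 0.14), and F13a1, a clotting transglutaminase (0.69 ± 0.13). Of 11 tested other receptor genes 6 were lower and none higher, among them Cd226 (−1.64 ± 0.22), the ADP receptor P2ry1 (−1.02 ± 0.16) and the thrombin receptor cofactor F2rl2 (−1.15 ± 0.22). Of 8 transcription factors Tal1 (−1.001 ± 0.20) and Zfpm1, the GATA cofactor FOG (−0.80 ± 0.16), were lower. Of 12 enzymes and cytoplasmic genes 5 were lower and 1 higher, the lower ones led by Cavin2 (−1.65 ± 0.22), the lipoxygenase Alox12 (−1.45 ± 0.24) and Rgs18 (−0.63 ± 0.12).

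Without replicate 1 and with the block, 28 of the 47 were lower and 6 higher, with a median of −0.83, beside 14.1% of all tested genes lower and 11.9% higher. The same fit called 8 of 9 tested erythroid markers lower, 9 of 12 neutrophil, 5 of 6 eosinophil, 5 of 6 B cell, 2 of 7 stem and progenitor, 2 of 6 dendritic and 1 of 5 endothelial markers, none higher, and neither tested T and NK cell marker. Macrophage (7 lower, 3 higher of 10), mast cell and basophil (3 lower, 1 higher of 8) and stromal markers (2 lower, 1 higher of 5) moved in both directions. By list, 4 of 6 receptor partners, 5 of 10 granule genes, 9 of 11 receptor genes, 5 of 8 transcription factors and 5 of 12 enzymes were lower there. In middle against low gels Itgb3 (−0.79 ± 0.11) and Itga2 (−1.14 ± 0.24) were lower with the block, and no gene of the lists was called in high against middle gels. Lists of other cells moved as well between high and low gels in the blocked fit of all 9 libraries. Of 12 neutrophil markers 4 were lower and none higher, with a median of −1.02, and of 6 eosinophil markers 4 were lower and none higher, with a median of −1.24. Macrophage markers split into 4 lower and 3 higher of 10. Among the tested markers of B cells 2 of 6 were lower, of stromal cells 2 of 4, of endothelial cells 1 of 3, of stem and progenitor cells 1 of 6, of mast cells and basophils 1 of 8, of dendritic cells 1 of 6, and of erythroid (8 tested) and T and NK cells (2 tested) none, with none of these higher. The 12 erythroid markers moved in opposite directions by replicate number. They summed to 458.7 CPM in the low and 810 CPM in the high gel of replicate 1. In replicates 2 and 3 they summed to 558.5 and 539 CPM in low gels and 322.5 and 237 CPM in high gels. The neutrophil markers summed to 3337 to 12160 CPM in high gels and 2914 to 21820 CPM in low gels, and the endothelial markers to 7.69 to 15.6 CPM in high gels and 19.8 to 26.3 CPM in low gels. The endothelial marker that was lower was Kdr (−1.80 ± 0.22, adjusted p = 0.000586). Their part in the values of the 8 genes was not tested.

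Between the numbers, 35 of the 47 genes were lower in replicate 1 and 3 were higher, with a median of −1.41, beside 32.5% of all tested genes lower and 32.9% higher in this contrast. Lower were Gp1bb (−4.30 ± 0.55) and Gp1ba (−1.34 ± 0.14), the chains that sit with Gp9 and Gp5 in one receptor, as were F5 (−2.76 ± 0.12), Mmrn1 (−2.94 ± 0.21), F2rl2 (−3.59 ± 0.25), Cd226 (−3.50 ± 0.24), Cavin2 (−3.37 ± 0.25), Zfpm1 (−3.08 ± 0.17), Gata1 (−3.08 ± 0.35) and Nfe2 (−2.19 ± 0.12). The 3 higher ones, named after their values were seen, were Cd36 (3.16 ± 0.47), Cd9 (0.44 ± 0.07) and Lat (1.17 ± 0.15). Which cells made the higher or the lower genes was not tested. Neutrophil markers were lower for 11 of 12, with a median of −2.39, and all 6 B cell markers were lower, with a median of −2.05. Lower were also all 6 eosinophil markers, both tested T and NK cell markers, 4 of 6 tested stem and progenitor markers and 2 of 8 mast cell and basophil markers, with none higher. Macrophage markers (2 higher and 6 lower of 10), dendritic cell markers (2 higher and 3 lower of 6) and erythroid markers (2 higher and 2 lower of 8 tested) were split, and none of 4 tested stromal markers was called. No list had a marker at 0 in all 9 libraries. Their part in the values of the 8 genes was not tested.

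**Figure D4:**
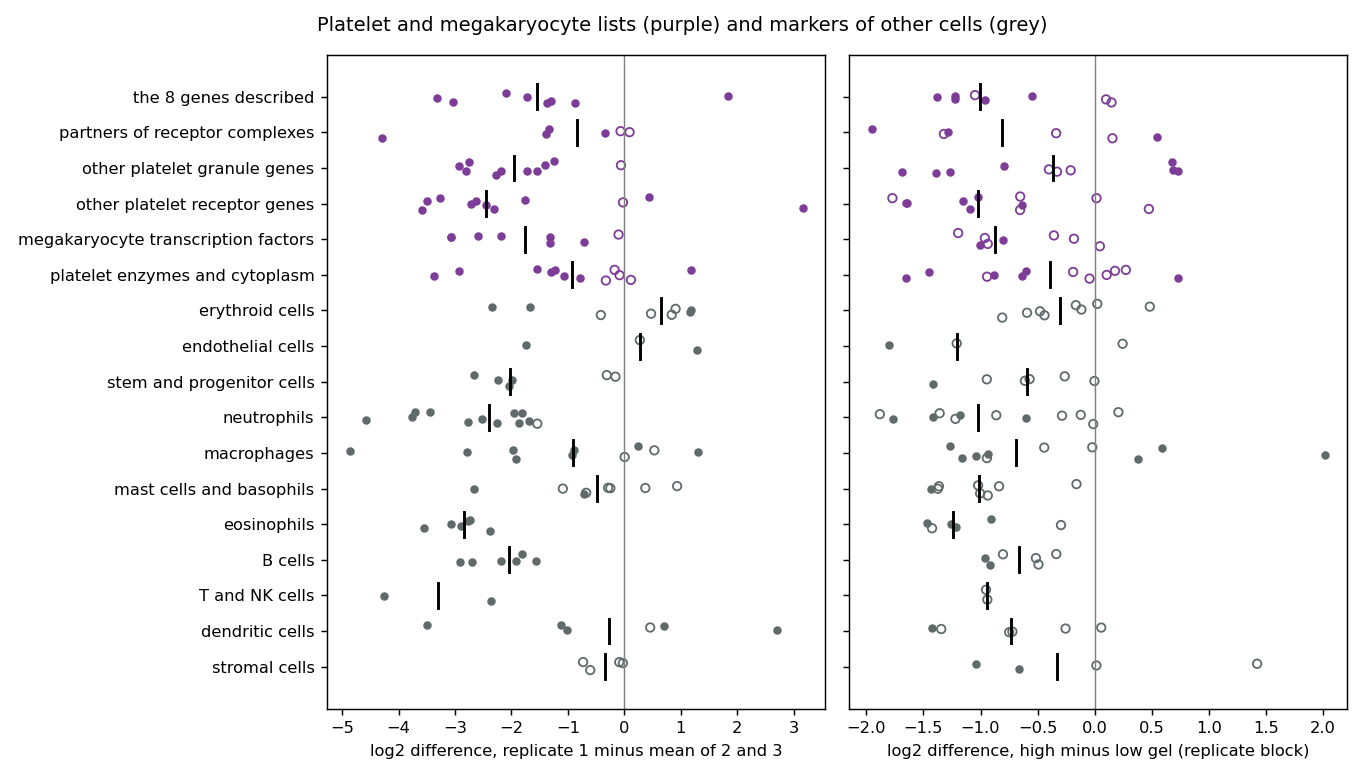
Log2 differences of replicate 1 minus replicates 2 and 3 (left) and of high minus low gel with the replicate block (right) for the tested genes of each list, with platelet and megakaryocyte lists in purple, other cells in grey, called genes filled and the list's median as a bar. The 8 genes have medians of −1.55 and −1.01, and lists of other cells such as neutrophils, at −2.39 and −1.02, lie as far to the left.

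For each of the 8 genes the 3 tested genes with the most similar profile were found by Pearson's r of log2 CPM over the 9 libraries, which is a description in which the replicate number dominates. Itga2b was followed most closely by Cavin2, Lgalsl and Mast4 (r = 0.996 to 0.997, and 0.974 to 0.979 over the 6 libraries of replicates 2 and 3). Tubb1 was followed by Syne1, Apobec1 and the integrin chain Itga2 (0.991 to 0.994, and 0.985 to 0.996). Vwf had Itpr2, Plcxd2 and Flvcr1 nearest (0.995 to 0.998, and 0.930 to 0.983). The nearest to Ppbp were Acss2, Arrb2 and Zcchc8 (0.993 to 0.996, and 0.955 to 0.975), to Gp5 Cenpc1, Tacc3 and Rtn4rl1 (0.967 to 0.977, and 0.944 to 0.964), and to Gp9 Smtn, Ulk1 and Kif22 (0.976 to 0.981, and 0.951 to 0.986). Likeness fell off in replicates 2 and 3 for the genes nearest to Pf4, which were Abhd12b, Pdia3 and Prr13 (0.980 to 0.982, and 0.727 to 0.922), and to Gp6, which were Tcf20, Herc1 and B3gnt5 (0.994 to 0.995, and 0.785 to 0.925).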

How the data were processed

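Poly(A) RNA of the 9 libraries was sequenced by the authors. The deposited files give per gene a raw count, the FPKM and, in one further column, the exonic size in bases. Per the submitters' processing notes, the tools named were DESeq2, HTSeq 0.6.1, HISAT2 2.0.1 and cutadapt 1.9.1, with build GRCm39. The sources used here do not give their settings or the strand used in counting. The deposited FPKM equalled counts per total and exonic size within 0.0051 in 100% of values. No coordinates of that build are printed.

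Counts were read as deposited, filtered with filterByExpr (12094 of 22173 genes, at least 99.92% of counts) and scaled by TMM (factors 0.964 to 1.02). Tests were edgeR 4.0.16 quasi-likelihood tests (limma 3.58.1, R 4.3.3) in 1 fit of 9 libraries, two-sided, with Benjamini-Hochberg adjustment and a threshold of 0.05. DESeq2 1.42.0 was an alternative. Values in CPM use TMM sizes, and log2 CPM a prior count of 2. The steps were tested on simulated data. Depth was 13172879 to 19486546 counts per library, so 1 count was 0.0513 to 0.0759 CPM.

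Libraries of one replicate number deviated together in all 9 pairs (r 0.60 to 0.86). The number, which the labels do not explain, was therefore used as a block, as an alternative to the planned main fit with the gel alone. Replicates 2 and 3 of different gels also deviated together (r 0.55 to 0.70). These values set replicate 1 apart but cannot show that libraries sharing number 2 or number 3 are paired. No libraries agreed within sampling noise (chi-square per degree of freedom at least 5.25). Within a gel it was 5.25 to 12 between replicates 2 and 3, and 147 to 216 between replicate 1 and either of them.

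The genes, lists and tests were chosen with earlier results of these data known. Named are the 8 genes, of each wider list up to 4 called genes with the smallest adjusted p or else its 2 most abundant, the 3 nearest profiles, and of other cells the 2 most abundant markers. One gene that this rule names is not reported here. Markers were used of erythroid, endothelial, stem and progenitor, neutrophil, macrophage, mast and basophil, eosinophil, B, T and NK, dendritic and stromal cells.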

Additional observations from a re-analysis of the deposited data

Results flagged for a closer look

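A difference between replicate numbers in the effect of the gel was found for 3 of the 8 genes, by the gel by replicate 1 term of an edgeR quasi-likelihood fit, as for 8.36% of all tested genes. The term was added after the data had been seen, leaves 3 residual degrees of freedom and rests on 1 library per gel in replicate 1. High minus low on the log2 scale differed between replicate 1 and replicates 2 and 3 by 2.014 for Pf4, by 1.784 for Ppbp and by −2.233 for Gp6. Pf4 was 39.5 CPM in the high gel and 13.1 CPM in the low gel in replicate 1, while in replicates 2 and 3 it was 53.1 and 70.6 CPM in the high gel and 81.0 and 84.8 CPM in the low gel. Gp6 was 0.853 CPM in the high gel and 2.87 CPM in the low gel in replicate 1, on 12 and 38 counts, against 14.7 and 19.4 CPM in the high gel and 10.7 and 13.4 CPM in the low gel in replicates 2 and 3. What the replicate number stands for was not tested.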

How the results depend on the processing

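Alternatives were DESeq2's test and size factors, no low-count filter, the replicate number as a block, a fit of the 2 groups compared alone, and each library or replicate number left out. Chosen after seeing the data were the block without replicate 1, the gel by replicate 1 term and the blocked fit with libraries left out. High against low called 11 genes, 333 with DESeq2's test, 1869 with the block, 0 with the 2 groups alone, 0 to 3207 with libraries left out (the most without replicate 1) and 3183 without replicate 1 with the block. Of the 8 genes these called 0, then 1, 5, 0, 0 to 6, and 8. Middle against low called 0 genes, 48 with DESeq2's test, 222 with the block, 0 to 784 with libraries left out and 825 without replicate 1 with the block. Of the 8 genes the block called 1, leaving out libraries 0 to 3, and the last 3. High against middle called 0 genes, 2 with DESeq2's test, 2 with the block, 0 to 840 and 900, and of the 8 genes 0 to 3 and 3. The blocked fit with libraries left out called 262 to 2469 genes and 2 to 6 of the 8 in high against low, and 6 to 661 and 0 to 2 in middle against low. The replicate 1 contrast stayed at 6548 to 7953 genes and 7 to 8 members.

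Some values changed sign. With the block Pf4 was 0.10 in high against low, 0.062 in middle against low and 0.038 in high against middle, where it was negative without it. With libraries left out, high against low ran from −1.507 to 0.454 for Vwf, −0.605 to 0.211 for Pf4 and −0.207 to 0.915 for Gp6. Middle against low ran from −0.879 to 0.017 for Itga2b, −1.229 to 0.578 for Vwf, −0.559 to 0.257 for Pf4 and −0.685 to 0.238 for Gp6. High against middle ran from −1.009 to 0.607 for Vwf, −0.343 to 0.307 for Pf4, −0.789 to 0.176 for Ppbp and −0.845 to 0.278 for Gp9. In the blocked fit without 1 library, replicate 2 or replicate 3, high against low ran from −0.36 to 0.559 for Pf4 and −0.243 to 0.45 for Gp6, and middle against low from −0.365 to 0.46 for Pf4. Of these only Vwf was called, in high against low without replicate 1 (−0.428, adjusted p = 0.00573). Without replicate 1 the blocked high against low difference was −0.443 for Pf4 (adjusted p = 0.00502) and 0.491 for Gp6 (adjusted p = 0.0335), and both were called. The causes were not tested. Among the 8 genes the block changed no call other than those given. Depth limits Gp9 most, at 7 to 62 counts a library.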
